A study of Mus with 6 samples.

Results

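Cells hold on to the matrix around them through integrins and other receptors, which bind laminins, thrombospondins, osteopontin and related adhesive glycoproteins. The genes of this machinery were followed in knee cartilage chondrocytes of mice that lack Sirt6 in Col2a1-expressing cells. A gene belonged to the group if its symbol was that of an integrin, laminin, nidogen, perlecan, agrin, thrombospondin, tenascin, SPARC-family, CCN, fibulin, fibrillin, EMILIN, microfibril, matrilin, syndecan or glypican gene, or of fibronectin, vitronectin, osteopontin, periostin, TGFBI, elastin, CD44, dystroglycan, CSPG4 or versican, and if its row lay in the 2 ranges of gene identifiers taken by the rule to have counts and labels on the same row. This gave 34 genes of the 11659 in the table. The rule rests on names and positions, but the group itself was proposed with earlier results of these data known.

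The counts come from RNA sequencing of C57BL/6J chondrocytes at 12 weeks of age, in 3 wild-type (WT) and 3 Sirt6 cKO samples. In the Sirt6 cKO mice both Sirt6 alleles carry loxP sites and a tamoxifen-dependent Cre recombinase (CreERT2) is driven by the Col2a1 promoter, so that the deletion reaches cells which use this promoter when tamoxifen is given, and other cells of a culture keep the gene. Whether the WT mice carried a floxed allele or Cre, or received tamoxifen, is not stated for these samples, and the methods describe first-passage cultured chondrocytes for the study's experiments. The labels and methods do not say outright that each sample came from its own animal, although the study's data statement can be read that way, so p-values measure the spread between these samples, which may be technical.

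Integrins are pairs of an α and a β subunit that span the membrane, and the α subunit largely sets which ligand is bound. The β1 subunit pairs with many α subunits, among them α3 and α6, which form laminin receptors, and α5, which forms the classical fibronectin receptor. Integrin αv pairs with β1, β3 or β5 and recognises the RGD tripeptide of vitronectin, osteopontin and other ligands. In cartilage each chondrocyte sits in a thin pericellular matrix that holds perlecan, laminins and nidogens, and integrins and syndecans connect this layer to the cytoskeleton.

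The counts summed to between 25726958 and 30156935 per sample, of which the 34 genes took 0.625% to 0.785%. Sirt6, the targeted gene, had 9963 to 10943 raw counts in WT against 660 to 1056 in Sirt6 cKO samples, which is -3.69 on the log2 scale, with a standard error of 0.21 (adjusted p = 8e-06). This and all later comparisons used the quasi-likelihood test of edgeR. WT replicate 1 stood apart, since its log2 counts correlated across genes at 0.969 and 0.971 with those of the other WT samples, which correlated at 0.993 with each other, and the Sirt6 cKO samples correlated at 0.984 to 0.992. For 29 of the 34 genes this library lay farther from the mean of WT replicates 2 and 3 than those lay from each other. Over all 34 genes it was below both in 15 and above both in 14. In both identifier ranges exon length followed the count of its own row best (Spearman's rho across genes 0.251 over 1769 rows and 0.295 over 4854 rows), whereas between the ranges rho was -0.002 on the same row and 0.266 with the row below. After the ranges, over 3594 rows, rho was 0.372 on the same row and highest, 0.503, with a shift of -3 rows, a weaker contrast, and these rows were left out by the rule. Of 18 chondrocyte markers 5 had a row in these ranges and 3 of them were called higher by the rule given below, which called 8.72% of all genes higher, and Col2a1 and Acan were not analysed here. Sox9 had a mean of 5520 normalized counts in WT against 8486 in Sirt6 cKO samples, while Comp and Ucma were near 0 in WT, at 14 to 28 and 2 to 6 raw counts, against 182 to 322 and 114 to 319 in Sirt6 cKO. Col11a1 had 143 to 235 raw counts in WT against 3116 to 3622 in Sirt6 cKO samples, whereas Col9a3 had 151 to 180 against 98 to 149 (log2 fold change -0.53, adjusted p = 0.0756). Of 12 synovial fibroblast markers 9 had a row and 5 were called higher by the same rule (background 8.72%), with a summed level of 1422 to 1454 CPM per kb of exon in WT against 4384 to 4981 in Sirt6 cKO samples. Most of this sum came from Col1a1 and Col1a2. Thy1 (log2 fold change 0.09), Has1 (-0.26) and Pdpn (-0.36, adjusted p = 0.0563) did not pass. Of 6 Schwann cell markers 3 had a row and 2 were called higher (background 8.72%), with a summed level of 43.6 to 49.95 in WT against 70.6 to 79.95 in Sirt6 cKO samples. The part of these differences between the libraries in the changes described below was not tested. In bulk RNA fewer cells of a type and less RNA per cell cannot be told apart.

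All 34 genes passed the filter on low counts. A gene was called when its adjusted p was below 0.05 and it was more than 2-fold higher or lower in Sirt6 cKO samples, the threshold that the study used. By this rule 3 of the 34 genes were higher in Sirt6 cKO chondrocytes (8.82%, against 8.72% of the 11246 genes tested) and 4 were lower (11.8%, against 7.15%), so the share called higher was close to that of the whole table. These counts turned on single libraries, with 5 higher and 3 lower without WT replicate 1 and 4 higher and 2 lower without Sirt6 cKO replicate 2. The higher genes were Lamb3, Agrn and Mfap5, and the lower genes included Itga6, Itgb7 and Ccn2. With the adjusted p alone and no limit on the fold, 11 genes rose (background 22.5%), 10 fell (background 24.3%) and 13 did not pass. In 14 genes the 3 Sirt6 cKO samples all lay above the 3 WT samples (background 30.2%) and in 10 all lay below (background 30.6%). The median log2 fold change was 0.19 over the 34 genes and 0.00 over all genes tested, and without WT replicate 1 the median of the 34 genes was 0.045. In the text below "rose" and "fell" stand for an adjusted p under 0.05, and "called" adds the fold threshold.

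**Figure D1:**
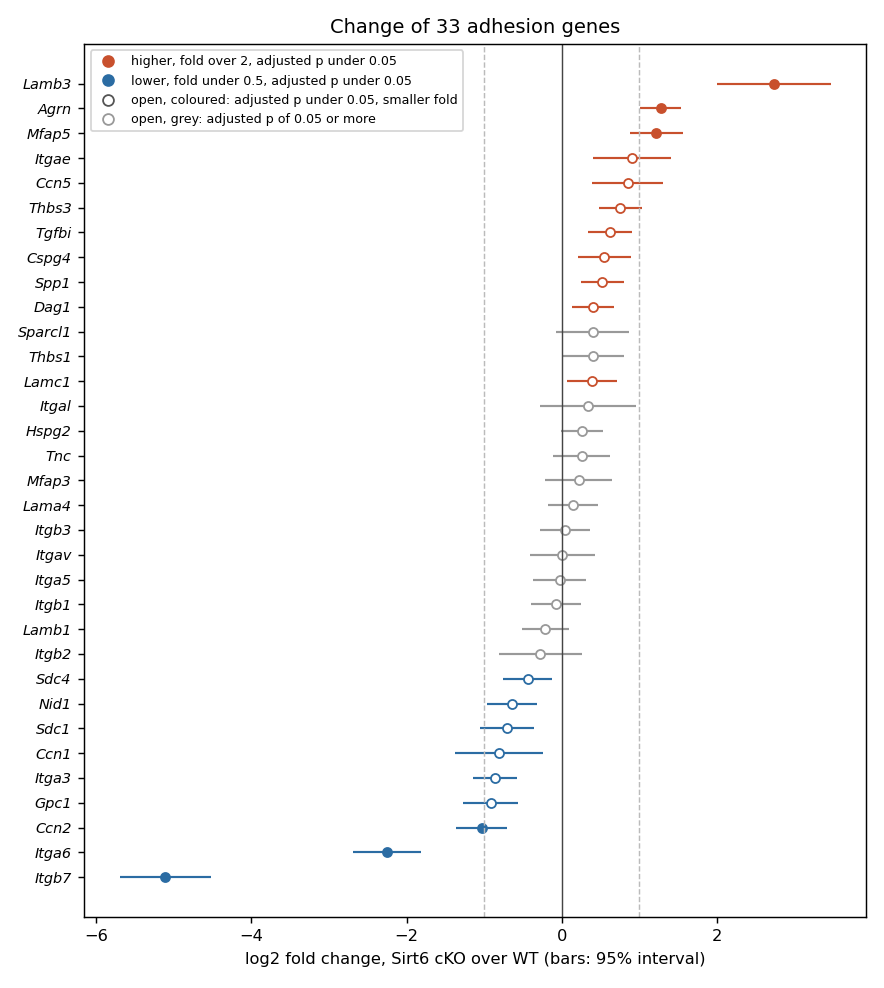
Log2 fold change of 33 of the 34 genes, Sirt6 cKO over WT, from edgeR with 3 samples a genotype. Points are estimates, bars are 95% intervals without correction for the number of genes, filled points passed both thresholds, open coloured points passed the adjusted p alone, and dashed lines mark a fold change of 2; Itgb7 at -5.11 and Lamb3 at 2.74 stand at the ends.

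Both α subunits of laminin receptors among the 34 genes fell, where 24.3% of all genes fell, while the α5, αv, β1 and β3 subunits did not pass the test. The difference in response between subunits was not itself tested. Itga6 (ENSMUSG00000027111, chromosome 2 from 71745616 to 71858416, positions here and below on GRCm38), which encodes integrin α6, had raw counts of 3955, 7390 and 7369 in WT against 1226, 1301 and 1553 in Sirt6 cKO samples. Every Sirt6 cKO sample lay below the lowest WT sample, WT replicate 1. The normalized count was 6317 ± 1378 (SD, n = 3) in WT against 1321 ± 164 (SD, n = 3) in Sirt6 cKO samples, a log2 fold change of -2.26 ± 0.19 (standard error, SE, adjusted p = 5.3e-05), which is 4.78-fold lower. Without WT replicate 1 it was -2.43. Itga3 (ENSMUSG00000001507, chromosome 11 from 95044474 to 95076801), which encodes integrin α3, had raw counts of 3295, 3586 and 3709 in WT against 2132, 2109 and 1966 in Sirt6 cKO samples. The genotypes did not overlap and the samples of each lay close together. Its log2 fold change was -0.86 ± 0.12 (SE, adjusted p = 0.000823), under the fold threshold. Of the other laminin-binding subunits, Itga7 and Itgb4 were not analysed here.

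For the subunits of fibronectin and vitronectin receptors the change was small. Itga5 changed by -0.02 on the log2 scale, with a 95% interval from -0.36 to 0.32, Itgav by 0.01 (interval -0.41 to 0.42) and Itgb3 by 0.05 (interval -0.28 to 0.37). These intervals lie inside the fold threshold in both directions. Itgb1 (ENSMUSG00000025809, chromosome 8 from 128685654 to 128733200), the shared β subunit of α3, α5, α6 and αv, had raw counts of 22600, 37026 and 38894 in WT against 31821, 32423 and 33738 in Sirt6 cKO samples. The Sirt6 cKO values fell between WT replicate 1 and the other WT samples. Its log2 fold change was -0.07 (interval -0.40 to 0.25). Without WT replicate 1 it was -0.20 with an adjusted p of 0.0405, so that this library decided whether Itgb1 passed, and without WT replicate 3 it was 0.02. The row of Itgb1 lies 10 rows from the start of the second identifier range, closer than any other gene of the group.

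The order of levels among the integrin subunits, given in CPM per kb of exon length (TMM-scaled counts per 1e6 reads and kb), was led by Itgb1 with 284 ± 47.0 (SD, n = 3) in WT against 270.1 ± 7.92 in Sirt6 cKO samples. In WT it was followed by Itga5 with 67.1 ± 3.57, Itgav with 35.0 ± 8.57, Itga6 with 24.3 ± 5.31 and Itga3 with 22.2 ± 1.501. Itgav was above Itga6 and Itga3 in every WT sample. Itga6 was below Itga3 in WT replicate 1 and above it in WT replicates 2 and 3, so the order of these genes was not settled. In Sirt6 cKO samples Itga6 dropped to 5.09 ± 0.63, below Itga3 at 12.2 ± 0.58 and near Itgb3 at 6.09 ± 0.50. In percentiles among all genes tested, Itga6 went from 71.5 in WT to 28.8 in Sirt6 cKO samples. Percentiles here and below are approximate. The genes ranked include rows outside the 2 ranges, where the exon length may not belong to the count of its row.

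**Figure D2:**
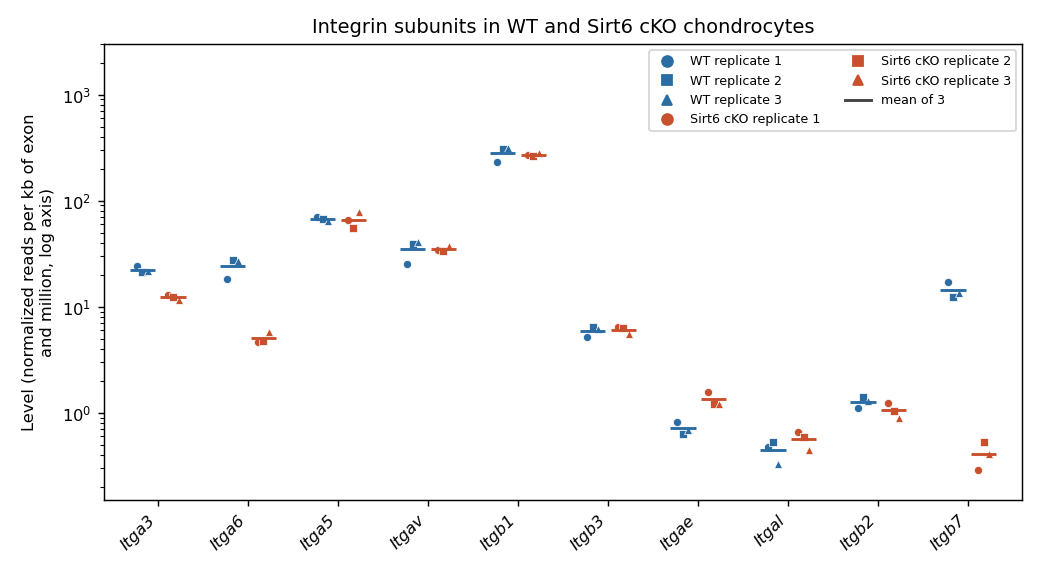
Level of the 10 integrin subunits in each sample, in CPM per kb of exon (normalized reads) on a log axis, with WT in blue, Sirt6 cKO in red, the symbol giving the replicate and the line the mean of 3. Itga3, Itga6 and Itgb7 are lower in all Sirt6 cKO samples, while Itga5, Itgav, Itgb1 and Itgb3 overlap between genotypes.

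The β7 subunit showed the largest change of the group. Itgb7 (ENSMUSG00000001281, chromosome 15 from 102215995 to 102231935) encodes a β subunit known mainly from lymphocytes, where it pairs with α4 or αE in homing to the gut. It had raw counts of 1117, 989 and 1122 in WT against 23, 44 and 33 in Sirt6 cKO samples. All WT samples lay far above the Sirt6 cKO samples, with WT replicate 1 the highest after normalization, at 131.5% of the mean of the other WT samples. The normalized count was 1123 ± 192 (SD, n = 3) in WT against 32.3 ± 9.73 (SD, n = 3) in Sirt6 cKO samples, a log2 fold change of -5.11 ± 0.26 (SE, adjusted p = 5e-06), which is 34.6-fold lower. Per exon length Itgb7 stood at 14.2 in WT, 56.9 in percentile among all genes tested, and at 0.41 in Sirt6 cKO samples. Its α partner αE did not move with it, since Itgae had raw counts of 91, 85 and 95 in WT against 211, 168 and 164 in Sirt6 cKO samples and rose by 0.91 on the log2 scale (standard error 0.22, adjusted p = 0.0103). Itgae was not called, but without WT replicate 1 its log2 fold change was 1.02 and it was, and without Sirt6 cKO replicate 1 its adjusted p was 0.0549. The α4 partner, Itga4, was not analysed here.

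The leukocyte β2 integrins were at a low level. Itgb2, the shared β2 subunit, had 82 to 128 raw counts in WT against 80 to 110 in Sirt6 cKO samples, and Itgal, the αL subunit of LFA-1, had 64 to 100 and 84 to 122. Neither passed the test, with adjusted p of 0.359 and 0.333. Of 12 leukocyte markers, only Cd68 had a row, with 41, 50 and 46 raw counts in WT against 6, 52 and 43 in Sirt6 cKO samples (log2 fold change -0.53, adjusted p = 0.473). In WT the level of Itgb7, 14.2 CPM per kb, stood above that of Itgb2, 1.27, and of Cd68, 1.21 to 1.36, and neither of these passed the test. The other leukocyte markers were not analysed here, and the part of leukocytes in the Itgb7 counts was not tested. Among the 10 integrin subunits, edgeR called 2 lower (background 7.15%) and 0 higher (background 8.72%), with 0 higher also by DESeq2 and limma-voom, and 1 (Itgae) was higher at an unadjusted p under 0.05 (background 26.7%).

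Of the laminin chains described here, Lamb3 was called higher (background 8.72%), Lamc1 rose just past the adjusted p, and Lamb1 and Lama4 did not pass. The difference between chains was not tested. Laminins are cross-shaped trimers of an α, a β and a γ chain, and the β1 and γ1 chains are the common ones outside epithelia, while β3 is a chain of epithelial basement membranes. Lamb3 (ENSMUSG00000026639, chromosome 1 from 193301957 to 193343878), the β3 chain, had raw counts of 9, 14 and 16 in WT against 74, 93 and 109 in Sirt6 cKO samples. All Sirt6 cKO samples were above all WT samples, at a low level in both. On the log2 scale the difference was 2.74 (standard error 0.33, adjusted p = 0.000309), or 6.66-fold higher. With at least 10 counts asked of every sample Lamb3 was not tested, since WT replicate 1 had 9.

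Of the common chains, Lamb1 had 8530, 11669 and 11948 raw counts in WT against 8958, 9108 and 11243 in Sirt6 cKO samples and did not pass (log2 fold change -0.21, interval -0.52 to 0.09). Lamc1 had 6416, 9545 and 9883 in WT against 11240, 10906 and 13542 in Sirt6 cKO samples and rose by 0.39 on the log2 scale (standard error 0.14, adjusted p = 0.0484). The rise of Lamc1 lay just past the threshold, and in 5 of the 6 fits that each left out 1 sample its adjusted p was over 0.05, up to 0.114, the exception being the fit without WT replicate 1. Lama4, the α4 chain of vessel-wall and mesenchymal laminins, did not pass, with a log2 fold change of 0.15. Per exon length Lamb1 and Lamc1 stood side by side in WT, at 38.5 ± 2.38 and 36.9 ± 4.09 (SD, n = 3), and at 33.2 ± 4.36 and 48.5 ± 5.97 in Sirt6 cKO samples, whereas Lama4 was at 3.16 and 3.50 and Lamb3 at 0.11 and 0.71.

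Nidogen, perlecan and agrin, which join laminin to the rest of the basement membrane or to cell receptors, each gave a different result. The difference between them was not tested. Agrn (ENSMUSG00000041936, chromosome 4 from 156165290 to 156197488) encodes agrin, a heparan sulfate proteoglycan that binds laminins and dystroglycan. It had raw counts of 3206, 3642 and 3737 in WT against 8844, 9592 and 8821 in Sirt6 cKO samples. The samples of each genotype were close together and the genotypes far apart. The normalized count was 3648 ± 161 (SD, n = 3) in WT against 8825 ± 319 (SD, n = 3) in Sirt6 cKO samples, a log2 fold change of 1.27 ± 0.12 (SE, adjusted p = 7.8e-05), or 2.42-fold higher. Tested against a fold change of 2 (glmTreat) it did not pass (adjusted p = 0.0718). Nid1, nidogen-1, which bridges laminin and collagen IV, had 9288, 14266 and 15873 raw counts in WT against 8383, 9217 and 8868 in Sirt6 cKO samples. The lowest WT sample was again WT replicate 1, and the genotypes did not overlap after normalization. Nid1 fell by 0.64 on the log2 scale (standard error 0.14, adjusted p = 0.00623). Hspg2, which encodes perlecan, had 15315, 18344 and 20446 raw counts in WT against 20759, 22699 and 25360 in Sirt6 cKO samples and did not pass (log2 fold change 0.26, interval -0.01 to 0.54, adjusted p = 0.103), although the Sirt6 cKO samples lay above the WT samples. With upper-quartile factors Hspg2 passed (0.34, adjusted p = 0.0431).

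The receptor for agrin on many cells is dystroglycan, which ties the matrix to dystrophin or utrophin inside the cell. Dag1 had raw counts of 7743, 9410 and 9839 in WT against 13142, 13472 and 11379 in Sirt6 cKO samples and rose by 0.41 on the log2 scale (standard error 0.12, adjusted p = 0.0214). In 4 of the 6 fits that each left out 1 sample, its adjusted p was over 0.05, up to 0.106. Of 16 genes of the dystroglycan-associated complex and of dystroglycan's sugar chain, 8 had a row in the ranges, 1 was called higher (background 8.72%) and none lower (background 7.15%). The called gene was Sgcb, β-sarcoglycan, with 579, 766 and 735 raw counts in WT against 1723, 1572 and 1602 in Sirt6 cKO samples (log2 fold change 1.15). With the adjusted p alone 2 rose (background 22.5%) and 1 fell (background 24.3%), counts near what the whole table gives.

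**Figure D3:**
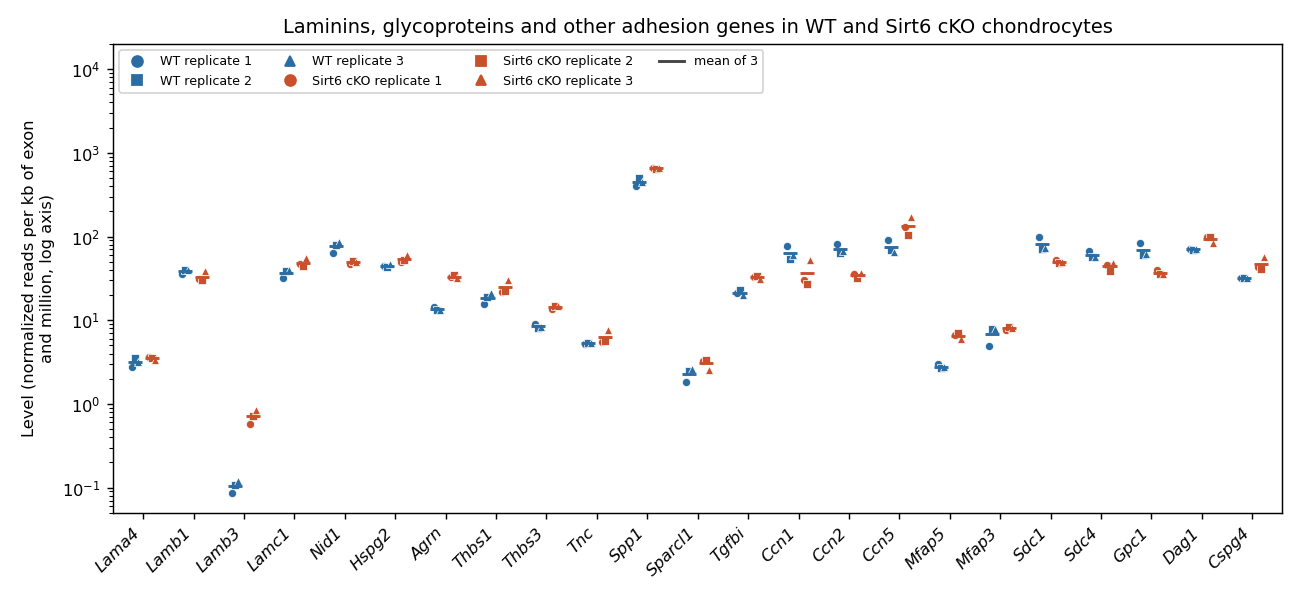
Level of 23 of the other 24 genes in each sample, in CPM per kb of exon (normalized reads) on a log axis, with WT in blue, Sirt6 cKO in red, the symbol giving the replicate and the line the mean of 3. Spp1 is the most abundant in both genotypes. Lama4, Lamb1, Sparcl1 and Mfap3 overlap between genotypes, and the other genes shown do not. Of all genes tested, 30.2% lay above and 30.6% below WT without overlap.

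Of 6 adhesive glycoproteins of the matrix (the thrombospondins and tenascin together with Spp1, Tgfbi and Sparcl1) 3 rose, by less than the fold threshold, and 3 did not pass, where 22.5% of all genes rose. Spp1, which encodes osteopontin, an RGD-containing ligand of αv integrins and of CD44 in bone and calcified cartilage, had the highest level of the group in both genotypes, 452 ± 50.9 (SD, n = 3) in WT against 651 ± 12.9 CPM per kb in Sirt6 cKO samples. Its raw counts were 16028, 24577 and 22335 in WT against 31573, 31559 and 32286 in Sirt6 cKO samples. The genotypes did not overlap, and Spp1 rose by 0.53 on the log2 scale (standard error 0.12, adjusted p = 0.00853). Tgfbi, a TGF-β-induced integrin ligand, rose by 0.63 (standard error 0.13, adjusted p = 0.0039), from 1349, 1802 and 1622 raw counts to 2586, 2751 and 2476. Sparcl1, the SPARC-like protein hevin, was low, at 136 to 249 raw counts in WT against 236 to 314 in Sirt6 cKO samples, and did not pass (adjusted p = 0.14), with 22.9% of its exon length shared with an annotated lncRNA. Among the thrombospondins, Thbs3, a pentameric form found in developing bone and cartilage, had raw counts of 1054, 1161 and 1214 in WT against 1943, 2149 and 2085 in Sirt6 cKO samples. It rose by 0.76 on the log2 scale (standard error 0.12, adjusted p = 0.00152), and 6.6% of its exon length is shared with a gene on the other strand and 530 exon bases with an annotated lncRNA. Thbs1, a trimeric form that binds CD47 and latent TGF-β, did not pass (log2 fold change 0.40, adjusted p = 0.0869), but with the replicate number as a block its adjusted p was 0.0398. Tnc, tenascin-C, a glycoprotein of remodelling matrix, did not pass either (log2 fold change 0.26, adjusted p = 0.215), and 65.6% of its exon length is shared with an annotated lncRNA, so its count is uncertain.

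The CCN proteins, small matricellular factors that bind integrins and heparan sulfate, split in direction. Ccn2 (formerly Ctgf, ENSMUSG00000019997, chromosome 10 from 24595442 to 24598683), a connective tissue growth factor induced by TGF-β and by YAP, had raw counts of 5677, 5346 and 5872 in WT against 3022, 2725 and 3103 in Sirt6 cKO samples. The genotypes were well apart, and the log2 fold change was -1.03 ± 0.15 (SE, adjusted p = 0.000743). Ccn2 stood close to the fold threshold and shares 12.7% of its exon length with an annotated lncRNA, Gm15270. Against a fold change of 2 (glmTreat) it did not pass. In the usual test it was not called with upper-quartile factors (-0.96), with total counts alone (-0.97), without WT replicate 1 (-0.91) or without Sirt6 cKO replicate 2 (-0.97), each time with an adjusted p under 0.05. Ccn1 (formerly Cyr61), its close relative, had raw counts of 3747, 3233 and 3696 in WT against 1785, 1666 and 3107 in Sirt6 cKO samples. Sirt6 cKO replicate 3 lay nearest to WT. Ccn1 fell by 0.81 on the log2 scale (standard error 0.25, adjusted p = 0.0274), was called without Sirt6 cKO replicate 3 (-1.13), and did not pass without Sirt6 cKO replicate 1 or 2 (adjusted p = 0.0979 and 0.0989). Ccn5 (formerly Wisp2), which lacks the C-terminal domain of the other CCN proteins, went up, with raw counts of 4176, 3909 and 3798 in WT against 7306, 6074 and 9649 in Sirt6 cKO samples. It rose by 0.85 on the log2 scale (standard error 0.20, adjusted p = 0.00885) and crossed the fold threshold without WT replicate 1 (1.01) and without Sirt6 cKO replicate 2 (1.00).

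Mfap5 (ENSMUSG00000030116, chromosome 6 from 122505845 to 122529290), a microfibril glycoprotein that binds fibrillin and contains an RGD sequence, was the only elastic fibre gene with a row in the ranges. Its raw counts were 258, 282 and 298 in WT against 692, 760 and 630 in Sirt6 cKO samples. The 2 genotypes did not overlap, and the log2 fold change was 1.22 ± 0.15 (SE, adjusted p = 0.000352), or 2.33-fold higher, and against a fold change of 2 (glmTreat) it did not pass (adjusted p = 0.263). Its row shares 0.67 of the joint span with the annotated gene, and that of Itga6 shares 0.634, so that these 2 genes would go unnamed if 0.8 were asked. Mfap3, which bears a similar symbol but encodes a membrane protein, did not pass (log2 fold change 0.22).

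All 3 heparan sulfate proteoglycans of the cell surface among the 34 genes fell, each by less than the fold threshold, where 24.3% of all genes fell. Gpc1, glypican-1, a proteoglycan held by a lipid anchor that presents growth factors, had raw counts of 7308, 6451 and 6816 in WT against 4138, 3820 and 3786 in Sirt6 cKO samples and fell by 0.91 on the log2 scale (standard error 0.16, adjusted p = 0.00197), with 12.6% of its exon length shared with an annotated lncRNA and 359 exon bases with the protein-coding Ankmy1. Sdc1, syndecan-1, had 9163, 8048 and 8449 in WT against 5784, 5516 and 5612 in Sirt6 cKO samples and fell by 0.71 (standard error 0.15, adjusted p = 0.00613). Sdc4, syndecan-4, which acts with integrin α5β1 in focal adhesions, had 4082, 4261 and 4409 in WT against 3442, 2944 and 3642 in Sirt6 cKO samples. It fell by 0.44 (standard error 0.14, adjusted p = 0.0313), and in 4 of the 6 fits that left out 1 sample its adjusted p was over 0.05, up to 0.126. For all 3 genes WT replicate 1 was the highest sample after normalization, at 137%, 138% and 117% of the mean of the other WT samples, and without it Gpc1 fell by 0.75 and Sdc1 fell by 0.54. The large chondroitin sulfate proteoglycan of the cell surface, Cspg4 (NG2), went the other way, with 6208, 7656 and 7800 raw counts in WT against 10118, 9908 and 13588 in Sirt6 cKO samples, and rose by 0.55 (standard error 0.15, adjusted p = 0.0157). Cspg4 is also used as a pericyte marker. Of 8 smooth muscle and pericyte markers 4 had a row, of which Cnn1 was called lower (background 7.15%) and none higher (background 8.72%), while with the adjusted p alone (background 22.5%) Des (log2 fold change 0.96, adjusted p = 0.00351) and Acta2 (0.53, adjusted p = 0.0477) rose as Cspg4 did and Tagln did not pass (-0.38, adjusted p = 0.239). The part of these cells in the Cspg4 counts was not tested. The 4 markers had a summed level of 302 to 502 in WT against 484 to 580.1 in Sirt6 cKO samples. Most of it came from Acta2, so the sum mainly follows that gene.

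Inside the cell, integrins are linked to actin by talin, kindlins, the ILK-PINCH-parvin complex, paxillin and other adaptors, and signal through focal adhesion kinase and Src. Of 43 genes of this list 21 had a row in the ranges, and edgeR called 1 lower (background 7.15%) and 0 higher (background 8.72%), with 0 higher also by DESeq2 and limma-voom and 4 higher at an unadjusted p under 0.05 (background 26.7%). The gene called lower was Apbb1ip (RIAM), which brings talin to integrins in blood cells, with raw counts of 917, 1073 and 1195 in WT against 438, 497 and 584 in Sirt6 cKO samples (log2 fold change -1.15, adjusted p = 0.000503). With the adjusted p alone 8 fell, against 24.3% of all genes, and 3 rose, against 22.5%. The others that fell, named after their values were seen, were the actin-binding proteins Actn1 (log2 fold change -0.92) and Flna (-0.79), the scaffold Bcar1 (-0.92), the kinase Src (-0.81), Ilk (-0.76) and its partner Parva (-0.69), and Pxn (-0.59), which encodes paxillin. Those that rose were the kindlin gene Fermt2 (0.91), Tns2 (0.76) and Zyx (0.74). The median log2 fold change of the 21 genes was -0.15.

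Ratios between partner genes within a sample do not depend on how samples are scaled. The pairs were chosen after the values above were seen and are given as a description without a test. The level of Itga6 over that of Itga3 was 0.759, 1.30 and 1.26 in WT against 0.364, 0.390 and 0.4999 in Sirt6 cKO samples. WT replicate 1 lay between the other WT samples and the Sirt6 cKO samples. The summed laminin-binding subunits Itga3 and Itga6 over the summed RGD-binding subunits Itga5 and Itgav gave 0.439, 0.464 and 0.463 in WT, with WT replicate 1 close to the others, and 0.175, 0.193 and 0.151 in Sirt6 cKO samples. By contrast Itga5 over Itgb1 and Itgav over Itgb1 overlapped between genotypes, at 0.242 ± 0.057 and 0.243 ± 0.036 for Itga5 and at 0.122 ± 0.011 and 0.130 ± 0.004 for Itgav (mean ± SD, n = 3, WT first). On the ligand side Lamb1 over Lamc1 was 1.11, 1.02 and 1.01 in WT against 0.665, 0.697 and 0.692 in Sirt6 cKO samples, and Nid1 over Lamc1 was 2.07 ± 0.11 in WT against 1.02 ± 0.13 in Sirt6 cKO samples. Agrn over Hspg2 was 0.303 ± 0.021 in WT against 0.614 ± 0.068 in Sirt6 cKO samples, and Ccn5 over Ccn2 was 1.05 ± 0.07 and 3.84 ± 0.69. In each of these pairs except Itga5 or Itgav over Itgb1, the 3 Sirt6 cKO samples lay on the same side of all 3 WT samples. The choice of pairs favours such separation, so it adds nothing to the values of the single genes. Of all single genes tested, 30.2% lay above and 30.6% below without overlap.

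**Figure D4:**
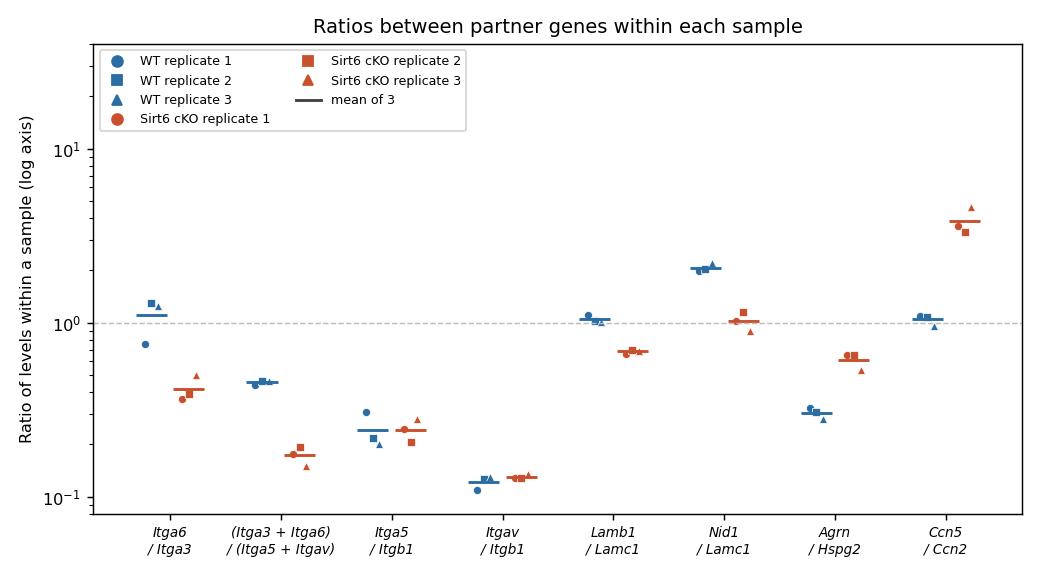
Ratio of the levels of partner genes within each sample on a log axis, with WT in blue, Sirt6 cKO in red, the symbol giving the replicate, the line the mean of 3 and the dashed line a ratio of 1. The laminin-binding over RGD-binding integrin ratio is 0.439 to 0.464 in WT against 0.151 to 0.193 in Sirt6 cKO samples, while Itga5 and Itgav over Itgb1 overlap.

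In WT the levels of the group ran over more than 3 orders of magnitude, from Lamb3 at 0.11 to Spp1 at 452 CPM per kb. After Spp1 and Itgb1 came a run of genes with means between 60.2 and 81.6, which were Sdc1, Nid1, Ccn5, Ccn2, Dag1, Gpc1, Itga5, Ccn1 and Sdc4 and whose neighbours lay within the spread of the WT samples. In Sirt6 cKO samples this run came apart, with Ccn5 at 135 ± 32.4 and Dag1 at 93.7 ± 8.21 at its top and Gpc1, Ccn1 and Ccn2 at 36.8 ± 2.29, 36.4 ± 13.4 and 34.8 ± 2.73 at its end. The largest shifts in percentile among all genes tested were those of Itgb7, from 56.9 to 2.6, Itga6, from 71.5 to 28.8, and Agrn, from 55.6 to 80.2.

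Of 98 genes with such a symbol in the annotation, 50 have no row here and were not analysed, among them Fn1, Vtn, Cd44, Sparc, Postn, Eln, Fbn1, Fbn2, Tnxb, Matn1, Matn3, Itga1, Itga2, Itga10, Itga11, Itga4, Itga7, Itga8, Itga9, Itgb4, Itgb6, Lama1, Lama2, Lama3 and Lama5. No collagen-binding α subunit and no matrilin was among the 34 genes. A further 14 have a row outside the 2 ranges, where exon length did not follow the count of its own row best, and were not analysed either, which are Efemp2, Emilin2, Fbln2, Fbln5, Gpc6, Itgb5, Itgb8, Lamb2, Mfap1a, Mfap1b, Nid2, Sdc2, Thbs2 and Vcan.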

How the data were processed

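The table that the authors deposited holds raw, unnormalized read counts for Ensembl mouse genes, with exon positions and the summed exon length, in the layout of featureCounts. Per the labels' processing notes, cutadapt, HISAT2 2.0.5 and StringTie were used and the build was hg19, whereas the deposited identifiers and positions are those of mouse. The counter, its strand setting and the annotation are not given in the sources used here. Samples were grouped by the genotype label. All 6 count columns were used, and depth is given as the total count per sample.

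Genes were named by position, where a row shared at least 0.5 of the joint span with a RefSeq gene of GRCm38.p6, and 10609 of the 11659 rows were named. Differential expression was tested on the counts by edgeR 4.0.16 under R 4.3.3 (TMM factors, filterByExpr, glmQLFit, glmQLFTest, genotype as the only term) over the whole table, with Benjamini-Hochberg adjustment over the 11246 genes kept; 413 were left out. The standard error is the log2 fold change over the root of the F statistic. The level is the CPM (TMM-scaled) per kb of deposited exon length. The test was checked on simulated counts. Named genes were Sirt6, every called gene except 1 that is not reported here, the most abundant gene of each sublist, every integrin and the called genes of the adaptor lists, and further genes were described by values. The members and gene lists were chosen with earlier results of these data known. Replicate numbers come from the labels. The deviations of same-numbered samples from their genotype means correlated across genes at 0.262, 0.104 and 0.136. Those of differently numbered samples correlated at -0.227 to 0.062. The main fit treated samples as unpaired, and a fit with the number as a block was among the alternatives. No source says that the number marks a shared litter or batch. Alternatives were RLE, upper-quartile or no factors, other count filters, DESeq2 1.42.0, limma-voom (limma 3.58.1), the likelihood ratio test, glmTreat, other thresholds, a stricter name match, only the rows of the 2 ranges, and leaving out each sample.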

Additional observations from a re-analysis of the deposited data

How the results depend on the processing

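Of 543 fold changes of the 34 genes under alternatives, 512 kept their direction and their side of an adjusted p of 0.05, 18 no longer passed, 4 newly passed and 9 changed sign. The sign changes were those of Itga5 with upper-quartile factors (0.049) and total counts alone (0.028) and of Itgb1 with upper-quartile factors (0.004), and, over the fits without 1 sample, of Itga5 (-0.146 to 0.093), Itgav (-0.182 to 0.147), Itgb1 (-0.205 to 0.018) and Itgb3 (-0.036 to 0.129), genes that did not pass the test in the main comparison. Over the same fits 3 to 5 genes of the group were higher and 2 to 5 lower, with 5 higher without WT replicate 1 (Itgae and Ccn5 gained), 2 lower without Sirt6 cKO replicate 2 (Ccn2 among those lost) and 5 lower without Sirt6 cKO replicate 3 (Ccn1 gained), and the median of the group lay between 0.045, without WT replicate 1, and 0.255; 0 to 1 adaptor genes were higher and 1 to 2 lower. Without a fold threshold 11 genes of the group were higher and 10 lower (all genes 2530 and 2736, adaptors 3 and 8, dystroglycan complex 2 and 1). With glmTreat, 1 was higher (Lamb3, with Agrn and Mfap5 lost) and 2 lower (Itgb7 and Itga6, with Ccn2 among those lost), with 412 and 340 of all genes, 0 adaptors lower and 0 dystroglycan genes higher. In the 2 identifier ranges alone 592 and 499 genes were called, since fewer were tested. With at least 10 counts in every sample Lamb3 was not tested. With the replicate block 3 genes of the group were higher and 4 lower, and besides Thbs1 no gene of the group changed its side of the threshold. Depth limited Lamb3, with 9 to 16 counts in WT.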
